A study of Mus musculus with 6 samples.

Results

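Cytosolic heat shock chaperones were examined as 10 genes taken by symbol from the count files of mouse bone marrow-derived macrophages: Hspa8, Hspa1a, Hspa1b, Hsph1, Bag3, Dnajb4, Dnajb1, Dnaja1, Hsp90ab1 and Hsp90aa1. All 10 were found among 40213 gene symbols, and all 10 passed the filter on low counts that left 12893 genes to test. They were chosen by symbol, with earlier results of these data known.

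The MNP group was 3 macrophage samples kept for 24 h with 50 µg of polystyrene particles, the micro- and nanoplastics that MNP stands for; the labels give no volume. The Control group was 3 samples that received no particles. Both groups came from bone marrow of C57BL/6 mice, grown over 4 days in 10% serum to which the growth factor M-CSF was added at 25 ng/ml. The labels give neither age, sex nor particle size. Library totals ran from 21283713 to 22700499 counts in MNP samples and from 20262859 to 23042146 in Control samples. Whether the 3 samples of a group were separate animals or cultures is not stated, so p-values measure the spread between these samples, which may be technical.

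Cytosolic chaperones bind unfolded stretches of other proteins and release them in cycles driven by ATP. J proteins such as Dnajb1 bring a client to HSP70, nucleotide exchange factors such as Hsph1 and Bag3 make HSP70 let go, and HSP90 takes over clients that are nearly folded, among them kinases and receptors. Some of these genes are constantly on (Hspa8, Hsp90ab1), whereas Hspa1a, Hspa1b, Dnajb1 and Hsph1 are classic targets of the heat shock factor HSF1, which binds repeats of the bases GAA and its complement TTC upstream of its targets and is released when unfolded protein accumulates.

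The upstream sequences below show how alike Hspa1a and Hspa1b are, and where a core of the heat shock element lies in them, in Hsph1 and in Dnajb4. They are from RefSeq on GRCm38.p6, an older build than the GRCm39 that the submitters name, are read 5′ to 3′ on the gene's own (minus) strand and end at the base before an annotated start. Capitals mark each core, GAANNTTC or TTCNNGAA, either of which reads the same on both strands. The windows are chr17:34972157-34972406 for Hspa1a, chr17:34959239-34959488 for Hspa1b, chr5:149636316-149636415 for Hsph1 and chr3:152193846-152193945 for Dnajb4, the first 2 of 250 bases and the others of 100.
Hspa1a: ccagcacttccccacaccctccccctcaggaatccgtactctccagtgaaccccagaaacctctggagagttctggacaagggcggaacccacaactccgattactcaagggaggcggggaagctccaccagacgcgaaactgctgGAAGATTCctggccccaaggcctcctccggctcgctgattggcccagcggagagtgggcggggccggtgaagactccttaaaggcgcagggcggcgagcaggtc
Hspa1b: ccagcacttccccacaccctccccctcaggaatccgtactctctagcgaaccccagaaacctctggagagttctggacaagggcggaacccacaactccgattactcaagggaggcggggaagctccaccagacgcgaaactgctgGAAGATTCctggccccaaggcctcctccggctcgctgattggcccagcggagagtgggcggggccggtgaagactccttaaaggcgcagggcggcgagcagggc
Hsph1: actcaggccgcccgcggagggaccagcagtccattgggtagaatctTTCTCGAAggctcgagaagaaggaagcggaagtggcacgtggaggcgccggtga
Dnajb4: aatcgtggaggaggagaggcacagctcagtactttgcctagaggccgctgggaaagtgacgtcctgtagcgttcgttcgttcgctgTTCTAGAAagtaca

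The Hspa1a and Hspa1b windows differed at 3 of 250 positions and carried the same core, starting 104 bases before the start. The core began 54 bases before the start in Hsph1, and 14 bases before the start in Dnajb4 at 1 of its 2 annotated starts. Of the 10 genes, 7 were matched in the promoter table, and 5 of these 7 had a core in the 250 bases before at least 1 start, namely these 4 and Dnaja1. Among all 27025 genes of the table, 14.5% had one by the same rule. That rule gives genes with more annotated starts more ways to match, and the Hspa1a and Hspa1b matches are not independent. A match of letters is a description and not a binding site, and Dnajb1 and Bag3, without a match in this window, are not thereby shown to lack one elsewhere.

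After MNP treatment, 5 of the 10 chaperone genes rose and 0 fell, all 5 by less than 1.5-fold. In log2 fold change they were Dnajb4 (0.49), Hsp90aa1 (0.30), Hsp90ab1 (0.27), Hsph1 (0.22) and Hspa8 (0.21). Across all 12893 tested genes, 9.11% were called higher and 8.35% lower (edgeR quasi-likelihood test, Benjamini-Hochberg adjusted p under 0.05). At an unadjusted p under 0.05, 6 of the 10 were higher and 0 lower, against 1961 and 1896 of all 12893. DESeq2 and limma-voom also called 5 of the 10 higher and 0 lower. Over all tested genes, DESeq2 called 9.76% higher and 8.45% lower, and limma-voom 9.25% and 8.12%. The median log2 fold change of the 10 was 0.25, against -0.01 for all tested genes. In 6 of the 10, the 5 called genes and Bag3, all 3 MNP samples lay above all 3 Control samples, a pattern that 17.2% of all tested genes showed. Of the genes named above as classic HSF1 targets, Hsph1 rose, and Hspa1a, Hspa1b and Dnajb1 did not pass the test. Hsp90aa1, the inducible form of HSP90, also rose (edgeR adjusted p = 0.0112), and Bag3 did not pass (edgeR adjusted p = 0.0610).

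The count of 5 depended on scaling and on single libraries. With library totals alone as the scaling, 2 of the 10 (Hsp90ab1 and Dnajb4) were called higher, against 5.87% of all genes, and all genes then split into 757 higher and 1941 lower calls in place of 1174 and 1076. Without MNP sample 3 the count was 2, against 5.90% of all genes. It was 3 without MNP sample 2 (5.99% of all genes) and 3 without Control sample 2 (6.61%). Only Dnajb4 and Hsp90ab1 passed in each of the 6 fits that left out 1 library. These were also the 2 genes called at an adjusted p of 0.01, where 5.31% of all genes were called higher, and Dnajb4 alone passed a test against a fold of 1.2, where 3.21% did.

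**Figure D1:**
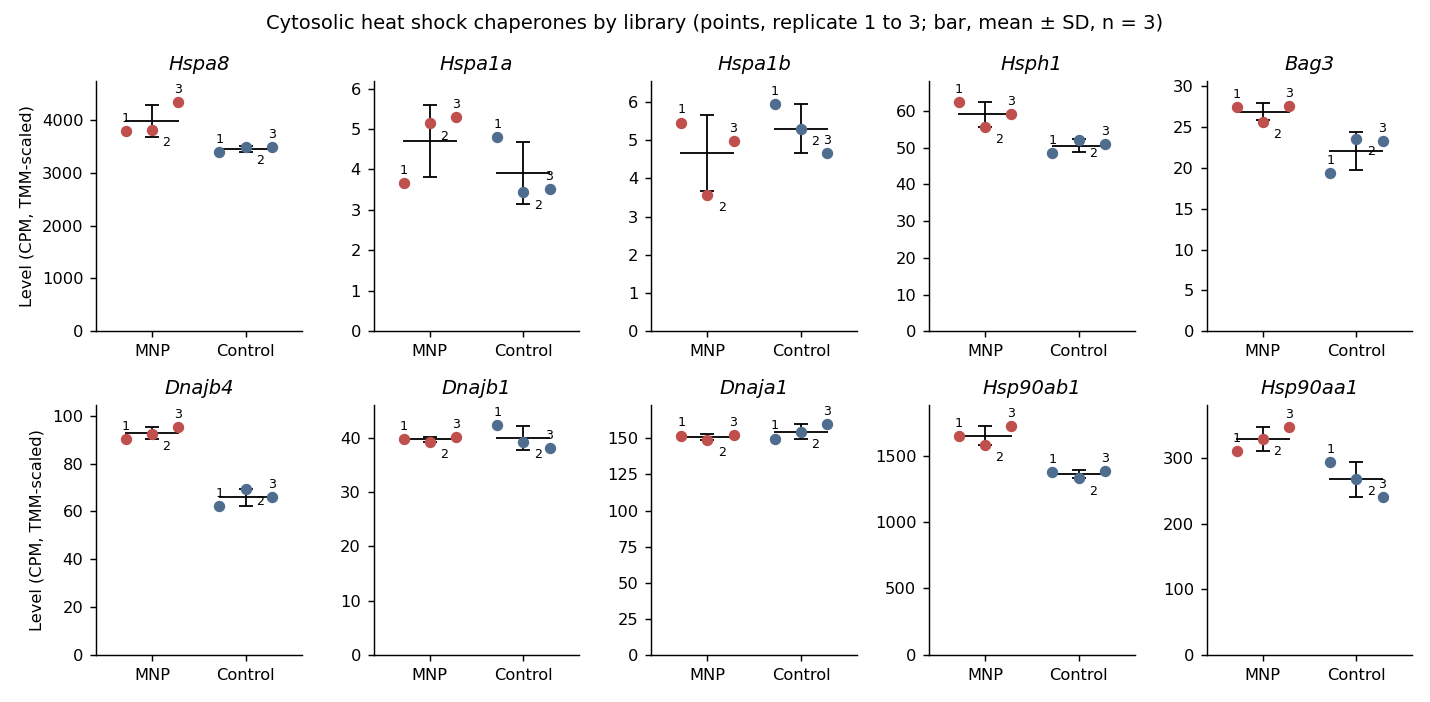
Levels in CPM, that is counts adjusted for each library's TMM-scaled size, of the 10 chaperone genes in each library, with MNP samples on the left and Control samples on the right of each panel; points are replicates 1 to 3, bars mean ± SD of 3, and every axis starts at 0. The groups do not overlap for Hspa8, Hsph1, Bag3, Dnajb4, Hsp90ab1 and Hsp90aa1, and they overlap for Hspa1a, Hspa1b, Dnajb1 and Dnaja1.

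Among the HSP70 genes, the constitutive Hspa8, which also uncoats clathrin vesicles and takes part in chaperone-mediated autophagy, was the dominant one. Its level was 3805, 3813 and 4345 CPM in MNP samples 1 to 3, against 3399, 3485 and 3494 CPM in Control samples. Every MNP sample was above every Control sample, and MNP sample 3 stood well above the other 2. The log2 fold change was 0.21 ± 0.06 (SE, edgeR adjusted p = 0.0384). The call was lost without MNP sample 3 (0.14, edgeR adjusted p = 0.130), without MNP sample 2 (0.24, adjusted p = 0.0568), without Control sample 2 (0.21, adjusted p = 0.0964) and with library totals alone (0.12, adjusted p = 0.176). Small nucleolar RNA genes lie within Hspa8. The counts assigned to Snord14c, Snord14d and Snord14e were at most 23 in any library, against at least 70913 for Hspa8. Whether reads from these genes were counted to Hspa8 was not tested.

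The stress-inducible pair Hspa1a and Hspa1b was low in both groups and did not pass the test. Hspa1a had 76, 114 and 111 counts in MNP samples, against 100, 79 and 83 in Control samples, or 4.71 ± 0.898 and 3.92 ± 0.761 CPM (SD, n = 3 each). Hspa1b had 113, 79 and 104 counts in MNP samples, against 124, 122 and 110 in Control samples. The groups overlapped for both genes. The log2 fold change was 0.27 for Hspa1a (95% interval -0.20 to 0.74, edgeR adjusted p = 0.448) and -0.19 for Hspa1b (-0.62 to 0.25, adjusted p = 0.582).

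Because these copies are so alike, their separate counts depend on how the authors' counting assigned shared reads. Their coding sequences, taken from GENCODE transcripts, were identical at 1918 of 1929 aligned positions (99.4%), and the 2 transcripts shared an unbroken run of 638 bases. Summed, the pair had 189, 193 and 215 counts in MNP samples, against 224, 201 and 193 in Control samples. The summed level was 9.37 ± 0.812 CPM in MNP samples and 9.22 ± 1.34 CPM in Control samples (SD, n = 3 each). Its log2 fold change was 0.03, with a 95% interval that ran from 0.824-fold to 1.26-fold (edgeR adjusted p = 0.930).

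Hspa1a supplied 40.2%, 59.1% and 51.6% of the pair's counts in MNP samples, against 44.6%, 39.3% and 43.0% in Control samples. The difference of 7.99 percentage points did not exceed the spread (exact two-sided permutation test over samples, p = 0.300, where 3 against 3 cannot give less than 0.10). It was 3.60 points without MNP sample 2 and 13.0 points without MNP sample 1. The 95% Wilson intervals of the share, which cover counting error only, were 33.5% to 47.3%, 52.0% to 65.8% and 44.98% to 58.2% in MNP samples, against 38.3% to 51.2%, 32.8% to 46.2% and 36.2% to 50.1% in Control samples. Those of MNP samples 1 and 3 overlapped each Control interval, and that of MNP sample 2 overlapped none.

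Of the nucleotide exchange factors, Hsph1, the cytosolic HSP110 that also holds unfolded protein in solution, rose narrowly past the threshold. It had 62.4, 55.7 and 59.1 CPM in MNP samples, against 48.6, 52.0 and 51.1 CPM in Control samples, so that the groups were separated by 3.65 CPM. The log2 fold change was 0.22 ± 0.07 (SE, edgeR adjusted p = 0.0457). Leaving out any 1 of the 6 libraries ended this call (edgeR adjusted p between 0.0508 and 0.128), as did upper-quartile scaling (adjusted p = 0.0516) and library totals alone (0.13, adjusted p = 0.199).

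Bag3, which couples HSP70 to small heat shock proteins and to selective autophagy, had 27.4, 25.7 and 27.6 CPM in MNP samples, against 19.4, 23.5 and 23.3 CPM in Control samples. The groups did not overlap, and the log2 fold change was 0.28 ± 0.10 (SE), but it did not pass (edgeR adjusted p = 0.0610). It passed with no filter on low counts (0.32, edgeR adjusted p = 0.0357), where 6 of the 10 genes were called higher, against 5.32% of all genes. The lowest of its 6 values was that of Control sample 1.

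The J proteins did not move together. Dnajb4, a type B J protein that serves cytosolic HSP70, had 90.2, 92.4 and 95.2 CPM in MNP samples, against 62.4, 69.6 and 66.0 CPM in Control samples. This was the widest relative gap among the 10 genes, with a log2 fold change of 0.49 ± 0.06 (SE, edgeR adjusted p = 0.000119). It was called in each of the 18 alternative analyses, where its log2 fold change ran from 0.40 to 0.53. Fubp1, which overlaps Dnajb4 in the RefSeq annotation of GRCm38.p6, had 105 ± 3.03 CPM in MNP samples and 90.6 ± 6.16 CPM in Control samples (log2 0.21, edgeR adjusted p = 0.0358). The Fubp1 call held in 1 of the 6 fits that left out a library. With no strand setting given, reads in the overlap cannot be assigned. The non-coding Gm40180 inside Dnajb4 had at most 5 counts.

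Dnajb1, the J protein first described as HSP40 and a standard readout of HSF1 activity, had 39.7, 39.2 and 40.1 CPM in MNP samples, against 42.4, 39.2 and 38.2 CPM in Control samples. All 3 MNP values lay within the Control range. Its log2 fold change was -0.01, with a 95% interval from 0.890-fold to 1.11-fold (edgeR adjusted p = 0.957), and its sign changed between alternatives. Dnaja1, a type A J protein that carries a farnesyl lipid, had 152, 149 and 152 CPM in MNP samples, against 150, 154 and 160 CPM in Control samples. The groups overlapped, and the log2 fold change of -0.04 had a 95% interval from 0.902-fold to 1.06-fold (edgeR adjusted p = 0.708). Both intervals lay below the log2 fold change of 0.49 of Dnajb4 (95% interval 0.35 to 0.63); the difference between these genes was not itself tested. Coding sequences of Dnajb1 and Dnajb4 were identical at 62.2% of aligned positions, with no shared run longer than 25 bases.

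Both cytosolic HSP90 genes rose. Hsp90ab1, the constitutive form, had 1646, 1579 and 1723 CPM in MNP samples, against 1379, 1328 and 1384 CPM in Control samples, with a log2 fold change of 0.27 ± 0.06 (SE, edgeR adjusted p = 0.00383). The MNP values lay above the Control values by more than the spread within either group. Hsp90aa1, the inducible form, had 311, 329 and 347 CPM in MNP samples, against 293, 267 and 241 CPM in Control samples, with a log2 fold change of 0.30 ± 0.07 (SE, edgeR adjusted p = 0.0112). Control sample 1 came within 17.5 CPM of MNP sample 1. The call for Hsp90aa1 was lost without MNP sample 3 (0.27, edgeR adjusted p = 0.0637) and with library totals alone (0.21, adjusted p = 0.0538), whereas Hsp90ab1 passed in both (log2 0.25, adjusted p = 0.0206, and 0.18, adjusted p = 0.0229).

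The balance between the HSP90 forms showed no difference beyond the spread. Hsp90aa1 supplied 15.9%, 17.3% and 16.8% of the counts of both in MNP samples, against 17.5%, 16.8% and 14.8% in Control samples. The difference was 0.27 percentage points (exact two-sided permutation test over samples, p = 0.800), and its sign turned without MNP sample 2 (-0.04 points) or Control sample 3 (-0.51 points). These coding sequences were identical at 75.3% of aligned positions, with no shared run longer than 33 bases.

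**Figure D2:**
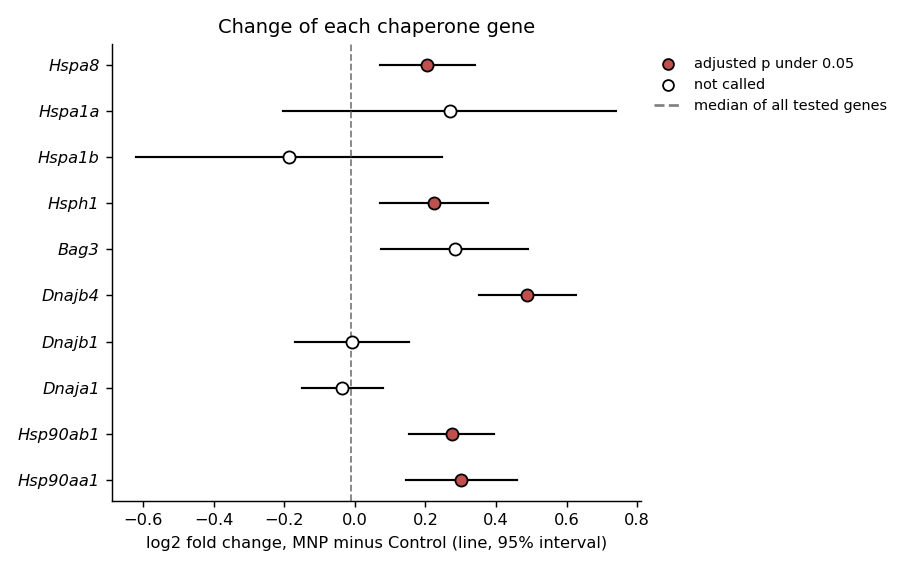
Log2 fold change (MNP minus Control) of each chaperone gene with its 95% interval from the edgeR fit; filled points passed an adjusted p of 0.05 and the dashed line marks the median of all tested genes, -0.01. Dnajb4 is farthest to the right at 0.49, and the intervals of Hspa1a, Hspa1b, Dnajb1 and Dnaja1 include 0.

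Levels compared per kilobase of the longest coding transcript spread widely. Hspa8 was highest, at 1666 ± 129 CPM per kb in MNP samples and 1445 ± 21.9 CPM per kb in Control samples (SD, n = 3 each). Hsp90ab1 followed with 654 ± 28.7 in MNP and 541 ± 12.3 in Control samples, and Hsp90aa1 with 100.3 ± 5.53 in MNP and 81.4 ± 8.03 in Control samples. Dnajb4 stood at 37.6 CPM per kb in MNP samples, above Dnaja1 at 26.9, whereas in Control samples their levels of 26.8 and 27.5 did not differ beyond their spread. Hsph1 at 15.5 stood above Dnajb1 at 13.2 in MNP samples, and in Control samples both were at 13.3. Bag3 was at 10.5 CPM per kb in MNP and 8.61 in Control samples. The lowest were Hspa1b, with 1.66 in MNP and 1.89 in Control samples, and Hspa1a, with 1.59 in MNP and 1.32 in Control samples, and the values of this pair overlapped among the MNP libraries. The Control level of Hspa8 was 1095 times that of Hspa1a. Lengths rest on the annotation: the longest Dnaja1 transcript has 5622 bases and the shortest that holds its full coding sequence 3376, and with the shortest such transcript of each gene the Control levels of Dnaja1 and Dnajb4 were 45.8 and 44.1 CPM per kb, while Hsph1 stood above Dnajb1 in the Control means too, at 16.1 and 13.3 CPM per kb.

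**Figure D3:**
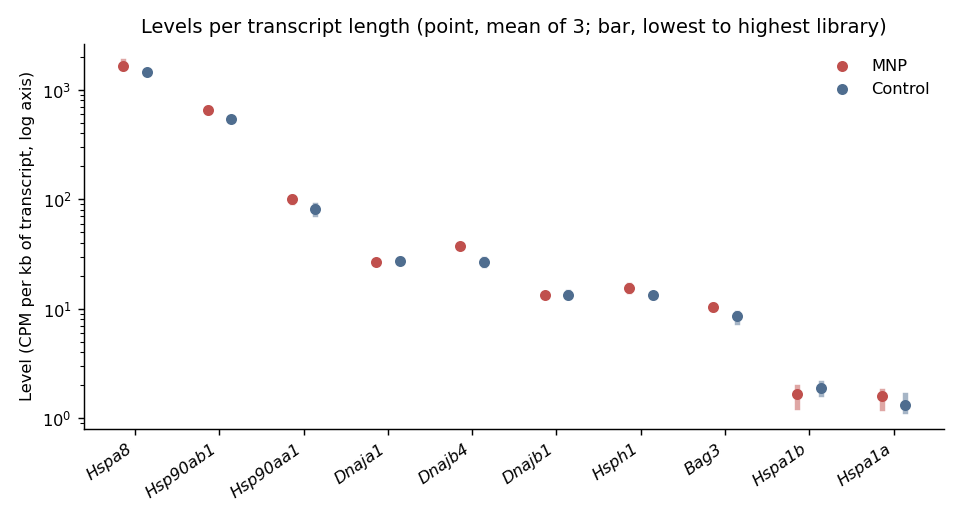
Levels of the 10 chaperone genes in CPM per kilobase of the longest coding transcript, on a log axis, in MNP (left of each pair) and Control samples; points are means of 3 and bars run from the lowest to the highest library. Hspa8 is at the top with 1666 in MNP and 1445 in Control samples, and Hspa1b and Hspa1a are lowest, below 2 in the means of both groups.

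The 10 genes together held 0.597%, 0.595% and 0.651% of all counts in MNP samples, against 0.557%, 0.562% and 0.559% in Control samples. These unscaled shares did not overlap, and Hspa8 and Hsp90ab1 made up 88.4% to 89.3% of them in every library. Among the MNP samples, sample 3 had the highest level in 8 of the 10 genes and the lowest in 0, and without it the log2 fold change of Hspa8 was 0.14 in place of 0.21. The highest Control value was in sample 1 for 4 genes, in sample 2 for 3 and in sample 3 for 3.

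In the wider chaperone network, of 94 genes in 9 further lists, 81 were tested, of which 5 rose and 4 fell, that is 6.17% and 4.94%, against 9.11% and 8.35% of all tested genes. Their median log2 fold change was 0.01.

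Among the regulators, Hsf1, the main heat shock factor, had 7.44, 8.66 and 8.36 CPM in MNP samples, against 7.48, 6.65 and 7.55 CPM in Control samples, and did not pass (log2 0.18, edgeR adjusted p = 0.437). Hsf2, a related factor, had 30.7 ± 2.48 CPM in MNP samples and 28.2 ± 2.54 CPM in Control samples (edgeR adjusted p = 0.429). Hsbp1, a small protein that binds the active HSF1 trimer and restrains it, was the 1 gene of 4 tested that changed, and it fell to 82.9 ± 4.95 CPM in MNP samples, against 100.1 ± 5.82 CPM in Control samples (log2 -0.27, edgeR adjusted p = 0.0124). Its call was lost without MNP sample 2 or Control sample 3 (edgeR adjusted p up to 0.0908).

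Among other HSP70 and HSP110 genes, 1 of 6 fell and 0 rose. It was Hspa2, an HSP70 best known from testis, with 6.96 ± 0.140 CPM in MNP samples and 9.28 ± 0.340 CPM in Control samples (log2 -0.41, edgeR adjusted p = 0.0419). This call was lost in each of the 6 fits that left out 1 library (edgeR adjusted p between 0.0668 and 0.115), and with no filter, DESeq2 or the replicate block. Of 13 other J proteins outside the endoplasmic reticulum lumen and mitochondria, 0 rose and 0 fell by the edgeR test, and 0 by DESeq2 and by limma-voom. At an unadjusted p under 0.05, 3 of the 13 were lower (Dnajb5, Dnajc7 and Dnajc13), against 1896 of all 12893 tested genes. With library totals alone 3 of the 13 were called lower, against 15.1% of all tested genes. Of 8 nucleotide exchange factors and HSP70 partners, 1 rose: Bag2, which restrains the HSP70-bound ubiquitin ligase Stub1, had 5.98 ± 0.430 CPM in MNP samples and 3.46 ± 0.439 CPM in Control samples (log2 0.79, edgeR adjusted p = 0.00915).

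Of 18 HSP90 cochaperones, 1 rose and 1 fell. With an unadjusted p under 0.05, 5 were higher and 2 lower, against 1961 and 1896 of all 12893 tested genes. Ptges3, the p23 protein that stabilises the closed form of HSP90, had 177 ± 3.13 CPM in MNP samples and 140.4 ± 10.1 CPM in Control samples (log2 0.33, edgeR adjusted p = 0.00203). Sugt1, a cochaperone for innate immune receptors of the NLR family, had 68.3 ± 1.46 CPM in MNP samples and 87.8 ± 4.12 CPM in Control samples (log2 -0.36, edgeR adjusted p = 0.00113). The groups did not overlap for either gene.

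Of 14 subunits of the TRiC chaperonin and of prefoldin, which fold actin and tubulin, 1 rose (Cct3, 1.13-fold) and 1 fell (Pfdn5, log2 -0.28). With an unadjusted p under 0.05, 5 subunits were higher, all of TRiC, and 1 was lower, of prefoldin. Among all 12893 tested genes, 1961 were higher and 1896 lower by that rule. The Cct3 call was lost with library totals alone and in the 5 fits that left out a library other than Control sample 2, and the Pfdn5 call was lost without any 1 MNP sample or Control sample 3 (edgeR adjusted p up to 0.131 for Cct3 and 0.206 for Pfdn5). Of 13 mitochondrial chaperones and proteases, Hspa9, the mitochondrial HSP70, rose 1.17-fold and the other 12 did not pass. By the unadjusted rule, 4 of the 13 were higher and 0 lower. The Hspa9 call was lost without MNP sample 3 (edgeR adjusted p = 0.0577) and with library totals alone. In this list, 2 genes were called higher by DESeq2, by the replicate block and without Control sample 2, and 3 with no filter. The shares of all tested genes called higher by these rules were 9.76%, 11.1%, 6.61% and 5.32%, in that order. Of 4 tested further HSF1 targets, Sqstm1 rose; it encodes the autophagy receptor p62 and is also a known NRF2 target, and had 535 ± 30.1 CPM in MNP samples and 314 ± 13.5 CPM in Control samples (log2 0.77, edgeR adjusted p = 1.16e-06). The ubiquitin gene Ubb and the stress factor Atf3 did not pass.

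Small heat shock proteins were close to the counting limit. Of 9 genes, 1 was tested, Hspb6, at no more than 0.763 CPM in any library. Hspb1, which encodes the small heat shock protein that heat-stressed cells make in bulk, had 5, 0 and 0 counts in MNP samples, against 1, 0 and 0 in Control samples. Hspb1 was not tested, and it had no more than 5 counts in any library. A fall from so few counts could not be seen at this depth. On the TMM-scaled library sizes, 3 counts correspond to 0.127 to 0.145 CPM.

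**Figure D4:**
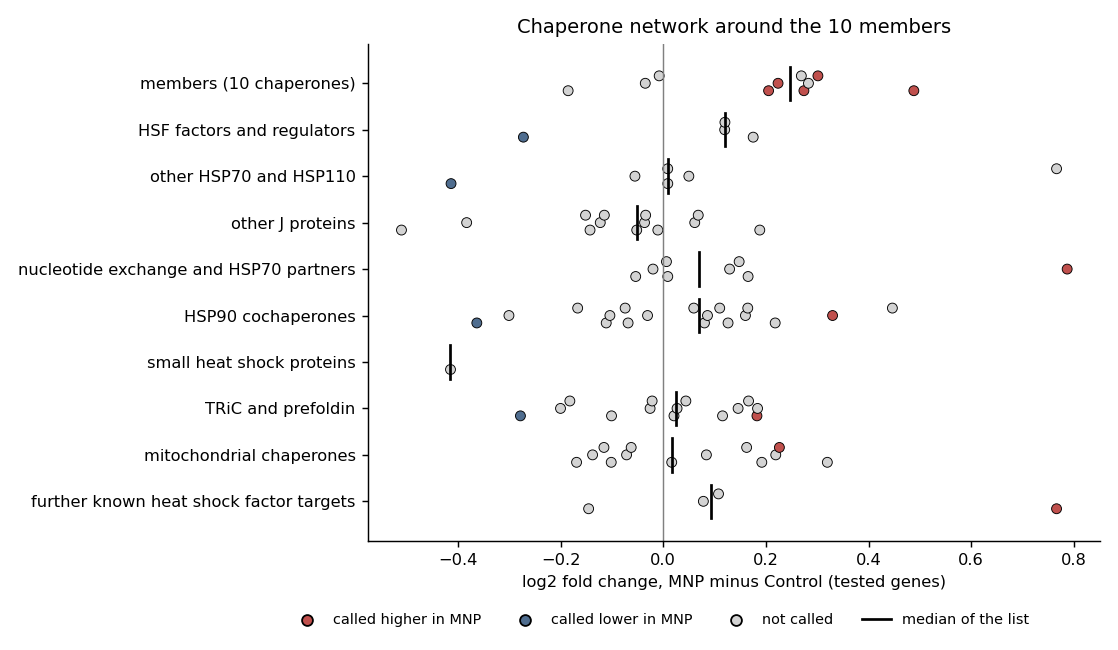
Log2 fold change (MNP minus Control) of every tested gene in the 10 chaperone genes and 9 further lists, 1 point a gene, red where called higher and blue where called lower in MNP samples, with a bar at the median of the list. The median of the 10 chaperone genes lies at 0.25, and the medians of the other lists with more than 1 tested gene lie between -0.05 and 0.12.

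Of the macrophage markers, Csf1r, the receptor for M-CSF, was at 1312 to 1382 CPM in MNP samples and 1319 to 1465 CPM in Control samples. The 7 macrophage markers summed to 16658 to 17687 CPM in MNP samples and 18775 to 19489 CPM in Control samples, and 4 of them (Adgre1, Mertk, Fcgr1 and Lyz2) were lower in MNP samples. Most of this sum was Lyz2, with means of 13152 CPM in MNP and 14779 CPM in Control samples. Cd68 had a higher mean in MNP samples (534 against 450 CPM, edgeR adjusted p = 0.0507), as did Itgam (906 against 888 CPM), and neither passed. Summed levels of markers of some other cell types were lower in MNP samples too, though not every marker was. The counts of markers called lower in this paragraph stand against 8.35% of all tested genes. For 7 neutrophil markers the sum was 112 to 131 CPM in MNP samples and 160 to 236 CPM in Control samples, with 3 of 6 tested lower. For 6 dendritic cell markers it was 2.15 to 3.62 CPM in MNP samples and 3.90 to 7.0 CPM in Control samples, with 1 of 4 tested lower. The 3 endothelial markers summed to 13.3 to 16.4 CPM in MNP samples and 17.7 to 21.7 CPM in Control samples, with 1 of 2 tested lower. Most of this sum was Kdr, with means of 13.1 CPM in MNP and 18.1 CPM in Control samples. Pecam1 (0.716 and 1.39 CPM) did not pass, and Cdh5 (0.506 and 0.273 CPM) was not tested. No marker of B cells, T cells, red cells or fibroblasts exceeded 1.22 CPM in a library, and Cd3e had 0 counts in all 6. In bulk RNA, fewer cells of a type and less RNA per cell cannot be told apart. Genes with at least 1 count numbered 18240 to 18672 in MNP samples and 20222 to 24062 in Control samples, and mitochondrially encoded genes held 3.13% to 3.69% of counts in MNP samples and 2.17% to 3.33% in Control samples. The part of these shifts in the chaperone values was not tested. On the second principal component, which held 17.8% of the variance, MNP sample 1 (32.6) stood apart from MNP samples 2 and 3 (-11.3 and -18.9); without it, Dnajb4, Hsp90ab1, Hsp90aa1 and Hspa8 were still called higher.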

How the data were processed

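For each of the 3 MNP and 3 Control libraries the authors deposited raw counts by gene symbol; 28815 of 40213 symbols had a count, and 0 rows named no gene. Per the labels' protocols, total RNA went into CORALL RNA-seq V2 libraries. The submitters' processing notes name fastp, STAR, Salmon, GATK and GRCm39 with no role or version; annotation, strand setting and use of molecular identifiers were not given in the sources used here, so counting intervals cover counting error only. Groups and replicate numbers came from sample titles. No replicate pair looked like 1 library deposited again (chi-square per degree of freedom 6.65 to 17.6).

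The test was that of edgeR 4.0.16, run in R 4.3.3 (TMM factors, default expression filter, quasi-likelihood F test over all 12893 tested genes, Benjamini-Hochberg adjustment, called under 0.05). The SE was taken as the size of the log2 fold change divided by the root of its F statistic, and 95% intervals use the test's degrees of freedom. CPM values use TMM-scaled library sizes; means carry the SD of 3 libraries. Shares were compared by exact permutation over samples. Of these steps, the edgeR fit was tested on simulated data. Alternatives were other scalings and filters, DESeq2 1.42.0, limma-voom (limma 3.58.1), a replicate block, stricter calls, leaving out mitochondrial genes and the 10 non-member genes with most counts, summing Hspa1a and Hspa1b, and omission of each library; for the shares of paralog pairs, a difference of log2 CPM with a prior count of 2 was also tried. Transcript lengths and sequences (GENCODE, RefSeq, GRCm38) were matched by symbol.

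The 10 genes and the lists were chosen with earlier results of these data known. All 10 are named; of each further list, up to 4 called genes with the smallest p are named, plus Hsf1 and Hsf2. Fubp1, the small nucleolar RNA genes, Gm40180, Hspb6, Hspb1, Dnajb5, Dnajc7, Dnajc13, Ubb, Atf3 and single cell type markers were named after their values were seen.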

Additional observations from a re-analysis of the deposited data

How the results depend on the processing

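The count of 5 chaperone genes called higher was 4 to 6 with RLE or upper-quartile scaling, no filter, a stricter filter, DESeq2, limma-voom, omission of abundant genes and the summed Hspa1 pair. In these alternatives and the replicate block, 5.32% to 11.1% of all tested genes were called higher. The chaperone count was 2 with library totals alone, 2 at an adjusted p of 0.01, and 1 (Dnajb4) when tested against a fold of 1.2, and 5 with the replicate block. Leaving out each library gave 2 to 4. No chaperone gene was called lower in any of these 18 alternatives. The 2250 calls over all genes became 1272 at an adjusted p of 0.01 and 873 against a fold of 1.2, and 1471 (without MNP sample 2) to 2245 when each library was left out. Library totals alone moved the median of all genes to -0.10, against -0.01.

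The log2 fold change of Dnajb1 turned to 0.026 with no filter, and ran from -0.032 to 0.044 when each library was left out; the other 9 genes kept their sign. The Hsp90aa1 share difference ran from -0.51 to 0.86 points and the Hspa1a share difference from 3.60 to 13.0 points. Counts of the further lists, each 0 or 1 in the main fit, were unchanged in 269 of 324 comparisons and never exceeded 3. Counts of 0 in lists with few tested genes had little room to move, so this share is a weak measure of stability. Deviations of same-numbered samples from their group means had correlations of 0.09, 0.03 and -0.02, and not every sample correlated best with its own number. The labels state no pairing, and with 3 samples per group these correlations cannot decide whether the numbers pair samples. With a replicate block 2686 genes were called, against 2250 without it, and the same number of chaperone genes, 5. The cause of these dependences was not tested. The counts of 76 to 124 of Hspa1a and Hspa1b limit what can be seen of them.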
